A study of Mus musculus with 76 samples.

Results

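The response to axotomy was measured in C57BL/6J (B6) neural cultures that had received ID-8, by setting cut cultures against uncut ones. Libraries were taken by their labels: 3 libraries were labelled ID-8 and cut, and 4 were labelled ID-8 and uncut, so 7 of the 70 libraries (76 sequenced samples) of the series form the comparison. All 7 came from B6 mouse embryonic stem cells differentiated into neural cultures and collected at the stage of axonal injury, all carried ID-8, and no transgene, engineered allele or reporter is named for them. ID-8 is a small-molecule inhibitor of the kinase DYRK1A. Its dose, the way axons were severed and the time between cutting and collection are not given in the sources used here. Each library holds polyadenylated RNA of a whole culture, so in these bulk samples fewer cells of a type and less RNA per cell cannot be told apart. The same stage also held 8 B6 control libraries without ID-8 (4 cut and 4 uncut) and 7 WSB/EiJ (WSB) libraries with ID-8 (4 cut and 3 uncut), which serve as comparisons.

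A neuron whose axon is severed is known to pass a damage signal to its nucleus through the kinase DLK (Map3k12) and JNK, which act on JUN, and to induce further transcription factors such as ATF3, SOX11 and KLF6 together with growth-associated proteins. In peripheral neurons this programme is strong and goes with lower expression of genes for synaptic transmission and ion channels, while in most central neurons it is weaker. Cells around a lesion, astrocytes and fibroblasts among them, are known to lay down matrix and to turn on contractile genes under TGF-beta and the mechanosensitive coactivators YAP and TAZ. DYRK1A phosphorylates many proteins, including NFAT transcription factors and cyclin D1, and is known for its part in neural development and in the exit of cells from the cycle.

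The culture names in the labels place the B6 libraries in 4 culture sets, called r13, 2, 3 and r1313_8d. Sets r13, 2 and 3 each gave 1 cut and 1 uncut ID-8 library. Set r1313_8d gave an uncut ID-8 library with no cut partner. Library totals of the 7 libraries ran from 31.98 to 53.14 (in 1e+06 expected counts), with 19821 to 21154 genes detected. Labels do not say whether sets came from separate differentiations, so p-values measure only the spread between these cultures. Neuronal, astrocyte and mesenchymal markers were all present. Per kilobase of exon, Tubb3 (neuronal tubulin) had a mean level of 545 RPKM over the 7 libraries (393 to 737), Map2 (dendritic microtubule protein) 67.9 (53.9 to 84.1), Gfap (astrocyte filament) 213 (151 to 355), Col1a1 (fibrillar collagen of fibroblasts) 138 (75.2 to 382) and Acta2 (smooth muscle actin) 129 (40.4 to 255). Defining markers of microglia were at or near 0: Aif1 had 0 to 4 counts per library, Cx3cr1 0 to 4 and C1qa 0 to 2. Sox10, which marks oligodendrocyte and neural crest lineages, had 1 to 8 counts.

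The unpaired uncut library stood apart from the other uncut ID-8 libraries. Both control libraries of its culture set stood apart in the same direction for the fibroblast and smooth muscle lists, though not for every list. Its Col1a1 level was 2508 CPM (counts per 1e+06 counts of the scaled library total), against 547, 641 and 565 in sets r13, 2 and 3, and its Tagln level was 60.4 CPM against 116.9, 224.9 and 208.4. In the uncut and cut control libraries of set r1313_8d the fibroblast list summed to 8070 and 8096 CPM, against 2817 to 4750 in the other 6 control libraries. The smooth muscle list summed to 233.8 and 355.1 CPM, against 898.1 to 1868. The astrocyte list summed to 7483 CPM in the unpaired library, against 5449 to 6186 in the other uncut ID-8 libraries. In the uncut control library of its set it was 5333 CPM, against 5446 to 6077 in the other uncut controls. Across the 13641 better expressed genes (mean log2 CPM of 1 or more), the difference between ID-8 and control uncut cultures of set r1313_8d had a Pearson r of 0.368 to 0.406 with that of the other sets, which among themselves had 0.551 to 0.714. These are correlations across genes, which are not independent replicates. The total number of calls is therefore given below with that set and without it. For single genes and lists, the result without it is given for some only.

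The main test fitted all 15 B6 libraries of the stage together, with the culture set as a block, in edgeR's quasi-likelihood test with Benjamini-Hochberg adjustment. Of 17289 genes tested, 0 were called at an adjusted p under 0.05 in either direction (0.00% higher, 0.00% lower), and the smallest adjusted p was 0.998. At an unadjusted p under 0.05 there were 267 genes higher in cut cultures (1.54%) and 319 lower (1.85%), fewer in all (586, or 3.39%) than 5 in 100. DESeq2 on the same 15 libraries called 2 genes higher and 2 lower. Those 4 were ENSMUSG00000055694, Gm14048, Gm21974 and Gm12918, named here after their values were seen. Each had 0 counts in 6 of the 7 libraries. The median standard error of a log2 difference was 0.11, and for 13488 of the 13641 better expressed genes (98.9%) the 95% interval lay within 1 log2 unit of 0.

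That count rested on the unpaired library. Without it 22 genes were called (12 higher, 10 lower), and with all 3 libraries of set r1313_8d left out, an alternative chosen after seeing the data, 56 genes were called, 28 higher (0.163%) and 28 lower (0.163%). When only the 7 ID-8 libraries were fitted, with the set as a block, 459 genes were called higher (2.71% of 16958) and 665 lower (3.92%). In this 7-library fit the unpaired library has a set term of its own and does not enter the difference, which rests on the 3 pairs. The fit has 2 residual degrees of freedom and draws on 11.7 prior degrees of freedom shared over genes, whereas the 15-library fit has 8 and 5.43. Leaving out any other ID-8 library of the 15 gave 0 calls, and 265 to 999 genes at an unadjusted p under 0.05. Of the 56 genes called without the set, 54 were also called in the 7-library fit. From here on, "called" without further words refers to the 7-library fit, and a gene so called was not called in the 15-library fit.

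**Figure D1:**
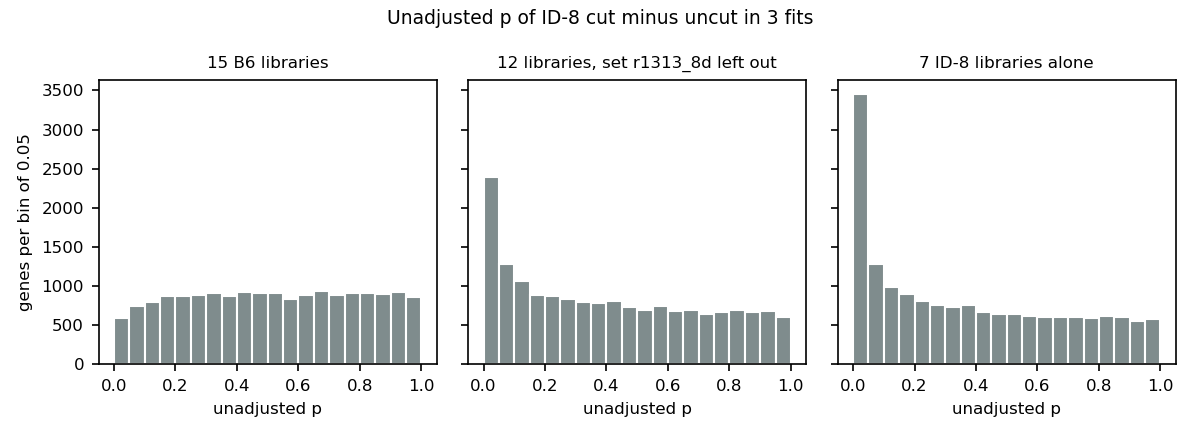
Number of genes (y axis) per bin of unadjusted p (x axis) for ID-8 cut minus uncut, in the fit of 15 B6 libraries, the fit of 12 without set r1313_8d and the fit of the 7 ID-8 libraries alone. The lowest bin holds 586 genes in the first fit, 2399 in the second and 3461 in the third.

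Changes were small. Among the called genes the median log2 difference was 0.29 for those higher and -0.24 for those lower. Only 9 of the higher and 3 of the lower genes reached 1 log2 unit. All 665 lower genes were below their uncut partner in each of the 3 sets, as were 453 of the 459 higher genes above it; over all genes tested 19.0% were above and 21.2% below in all 3 sets. Since the same pairs made the calls, these shares are a description. List counts below are set against these shares over all genes, and against 2.71% called higher and 3.92% called lower. The 15-library estimate had the same sign for 451 of the 459 and for all 665. Across the 13641 better expressed genes, called or not, the differences between partners agreed less well from set to set. Pearson r was 0.313 for sets r13 and 2, 0.129 for r13 and 3, and 0.427 for 2 and 3.

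The lactate transporter Slc16a3 (MCT4; chromosome 11, 120948480 to 120960868, GRCm38) had the largest fall in the 7-library fit among the genes given below with their values. It read 4.83, 5.86 and 9.38 CPM in the uncut cultures of sets r13, 2 and 3 and 2.29, 2.69 and 3.35 CPM in their cut partners. The unpaired uncut library read 3.00 CPM, so the cut library of set 3 lay above 1 uncut value. Its difference was -1.24 ± 0.15 log2 (SE; adjusted p = 0.00174, edgeR) in the 7-library fit, and -1.27 ± 0.30 (unadjusted p = 0.00111, adjusted p = 0.998) in the 15-library fit. Lox, the lysyl oxidase that cross-links collagen, shared the smallest adjusted p of the higher genes with Gkn2. Lox read 70.6, 132 and 144 CPM uncut and 94.6, 209 and 220 CPM cut in sets r13, 2 and 3, with 194 CPM in the unpaired uncut library. Lox was thus higher in the cut culture of every pair, though the groups overlapped. Its difference was 0.57 ± 0.06 (adjusted p = 0.000804, edgeR) with 7 libraries and 0.32 ± 0.24 (unadjusted p = 0.203, adjusted p = 0.998) with 15. Both Lox and Slc16a3 were also called without set r1313_8d.

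**Figure D2:**
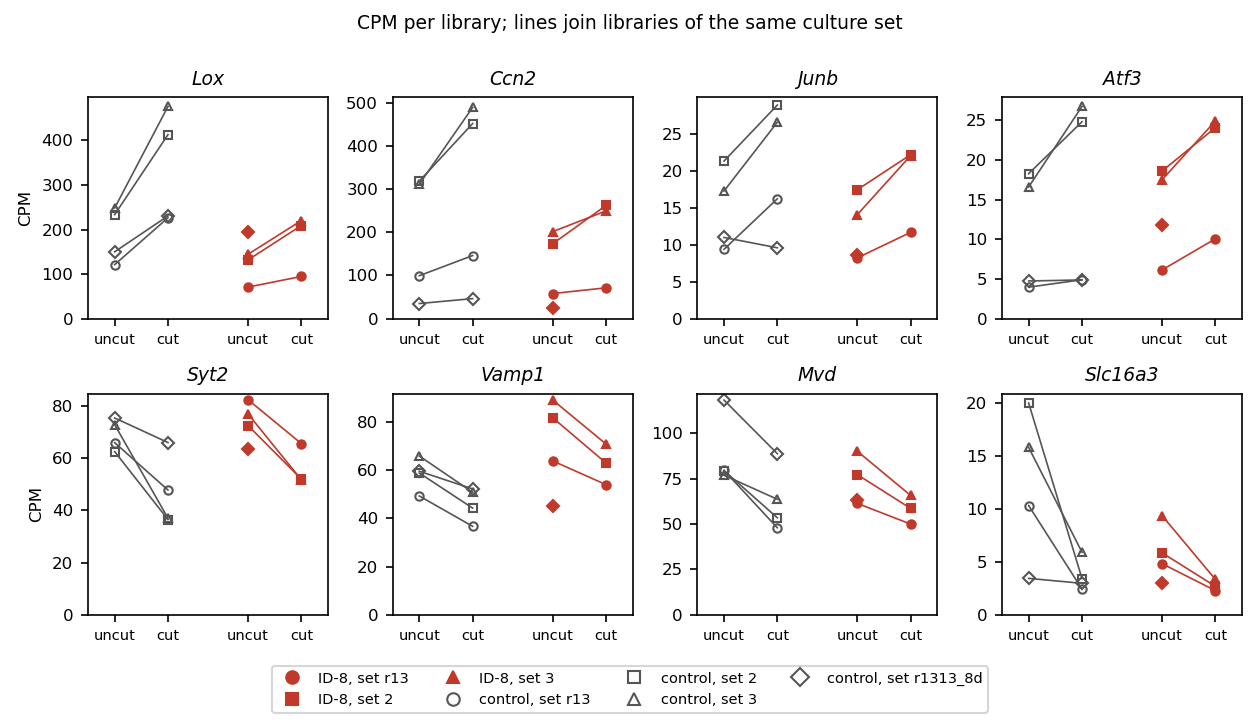
CPM per library (y axes, from 0) of 8 genes in B6 control (open grey) and ID-8 (filled red) cultures, uncut and cut; lines join libraries of the same culture set and shapes mark the sets. In the ID-8 cultures Lox, Ccn2, Junb and Atf3 are higher and Syt2, Vamp1, Mvd and Slc16a3 lower in the cut library of all 3 pairs, and the lone red diamond is the unpaired uncut library of set r1313_8d.

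Transcription factors of the injury programme had a small median change, with a minority called higher. Of 22 tested, 9 were above and 3 below in all 3 sets, against 19.0% and 21.2% of all genes. The median over genes of the mean difference between partners was 0.06 log2. Of the 22, 4 were called higher and 0 lower, against 2.71% and 3.92% of all genes. The 4 were Atf3, Klf4, Klf6 and Egr1. Atf3, a stress-induced factor of injured neurons, read 6.13, 18.6 and 17.5 CPM uncut and 10.0, 24.1 and 24.9 CPM cut in sets r13, 2 and 3, with 11.8 CPM in the unpaired library. Every cut culture was above its partner, and the groups overlapped because set r13 was low throughout. The difference was 0.51 ± 0.09 (adjusted p = 0.00561, edgeR) with 7 libraries and 0.31 ± 0.28 (unadjusted p = 0.297) with 15. Klf4 differed by 0.38 ± 0.06 (adjusted p = 0.00477, edgeR) and Klf6 by 0.21 ± 0.05 (adjusted p = 0.0272, edgeR). None of Atf3, Klf4, Klf6 and Egr1 was called without set r1313_8d. Jun, the factor under DLK and JNK, read 128.6, 134 and 124.1 CPM uncut and 119.2, 138.8 and 136.9 CPM cut, with 153.6 CPM in the unpaired library. Its difference was 0.03 ± 0.06 (adjusted p = 0.827, edgeR), and that of Sox11, a factor of axon regrowth, was -0.04 ± 0.06 (adjusted p = 0.775, edgeR).

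Growth effectors had calls in both directions, and more genes of the DLK pathway were below their partner than above it. Of 34 tested growth effectors, 8 were above and 15 below in all 3 sets (19.0% and 21.2% of all genes). Of the 34, 3 were called higher and 5 lower (2.71% and 3.92% of all genes). Those called higher were Csrp1, Anxa1 and Tnfrsf12a. Anxa1, which encodes the membrane-binding annexin A1, read 23.0, 31.2 and 38.1 CPM uncut and 31.6, 46.7 and 47.4 CPM cut, with 41.4 CPM in the unpaired library. The differences were 0.46 ± 0.07 (adjusted p = 0.00335, edgeR) for Anxa1 and 0.35 ± 0.05 (adjusted p = 0.00283, edgeR) for Csrp1, a LIM-domain protein, and both were also called without set r1313_8d. In the 15-library fit Csrp1 ranged from -0.03 to 0.35 when each ID-8 library was left out in turn. Those called lower included Gap43, the growth cone protein, Stmn2, which regulates microtubules in axons, and L1cam, an adhesion molecule of axons. Gap43 read 860, 582 and 667 CPM uncut and 755, 513 and 589 CPM cut, with 729 CPM in the unpaired library. It was lower in each cut culture by a like amount (-0.19, -0.18 and -0.18 log2; fitted -0.18 ± 0.04, adjusted p = 0.0276, edgeR), a change smaller than the differences between sets. Of 28 genes of DLK signalling and axon degeneration, 4 were above and 12 below in all 3 sets, 0 were called higher and 2 lower, the scaffold Mapk8ip1 and the ubiquitin ligase Mycbp2. Map3k12 itself differed by -0.08 ± 0.05 (adjusted p = 0.363, edgeR) and Sarm1, the NAD-cleaving enzyme of axon degeneration, by -0.17 ± 0.05 (adjusted p = 0.0703, edgeR).

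Immediate early genes, which cells transcribe within minutes of a stimulus, were mostly higher. Of 29 tested, 18 were above and 1 below in all 3 sets, against 19.0% and 21.2% of all genes. Among the 29, 11 were called higher and 0 lower, against 2.71% and 3.92% of all genes. The median difference between partners was 0.29 log2, against -0.000434 over all genes. Junb read 8.23, 17.5 and 14.1 CPM uncut and 11.7, 22.2 and 22.1 CPM cut, with 8.57 CPM in the unpaired library. Nr4a1, a nuclear receptor induced by activity, read 8.38, 44.3 and 37.1 CPM uncut and 10.6, 59.1 and 54.4 CPM cut, with 13.2 CPM in the unpaired library. Within each pair the cut culture was higher, while set r13 lay far below sets 2 and 3. Junb differed by 0.50 ± 0.09 (adjusted p = 0.00674, edgeR) and Nr4a1 by 0.45 ± 0.07 (adjusted p = 0.00335, edgeR), and these 2 of the list were also called without set r1313_8d. In the 15-library fit 5 of the list had an unadjusted p under 0.05, all higher, among them Junb (0.45 ± 0.14, unadjusted p = 0.00556) and Dusp5, a phosphatase of ERK (0.33 ± 0.12, unadjusted p = 0.0181). Fos differed by 0.34 ± 0.08 (adjusted p = 0.0335, edgeR) and Btg2, also a p53 target, by 0.29 ± 0.05 (adjusted p = 0.00498, edgeR).

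Genes of neurons and synapses were lower in cut cultures. Over all genes 19.0% were above and 21.2% below in all 3 sets, with 3.92% called lower and 2.71% higher. Of 30 presynaptic genes 0 were above and 28 below in all 3 sets, with 21 called lower and 0 higher. Their median difference was -0.23 log2. Of 28 postsynaptic genes 0 were above and 20 below, with 12 called lower; of 24 genes of neuronal cytoskeleton and identity 0 were above and 20 below, with 15 called lower. Of 26 voltage-gated channel genes 0 were above and 21 below, with 13 called lower and a median of -0.23. No member of these lists was called higher, and in the 15-library fit none was called in either direction. Without set r1313_8d, 2 presynaptic genes, 1 postsynaptic and 1 of the identity list were called, all lower.

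Syt2, the fast calcium sensor of vesicle release (chromosome 1, 134646677 to 134762593, GRCm38), read 82.4, 72.5 and 76.9 CPM in uncut sets r13, 2 and 3 and 65.6, 52.0 and 51.7 CPM in their cut partners. The unpaired uncut library read 63.4 CPM, below the highest cut value, and the paired groups did not overlap. Its difference was -0.46 ± 0.05 (adjusted p = 0.00174, edgeR) with 7 libraries and -0.35 ± 0.16 (unadjusted p = 0.0452) with 15. The vesicle SNARE Vamp1 (-0.32 ± 0.05, adjusted p = 0.00477, edgeR) and Unc13a, the vesicle-priming factor (-0.26 ± 0.05, adjusted p = 0.00786, edgeR), were lower too. Outside the list were Prrt2, a protein of the release machinery (-0.42 ± 0.05, adjusted p = 0.00174, edgeR), and Slc6a5. Slc6a5, the glycine transporter of inhibitory terminals, read 110, 79.2 and 74.0 CPM uncut and 85.8, 59.2 and 56.1 CPM cut, with 71.2 CPM in the unpaired library, and differed by -0.39 ± 0.05 (adjusted p = 0.00174, edgeR).

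At the postsynaptic side the glutamate receptor subunits Grin1 (-0.30 ± 0.05, adjusted p = 0.0063, edgeR) and Gria4 (-0.26 ± 0.05, adjusted p = 0.00796, edgeR) and the scaffold Shank3 (-0.26 ± 0.05, adjusted p = 0.0145, edgeR) were called lower. Among channels, Scn8a, the sodium channel of nodes and axon initial segments, read 106.7, 59.1 and 50.8 CPM uncut and 84.6, 43.8 and 42.5 CPM cut, with 85.1 CPM in the unpaired library. The difference was -0.34 ± 0.05 (adjusted p = 0.00392, edgeR). Also called were Cacna1b, the N-type calcium channel (-0.31 ± 0.05, adjusted p = 0.00662, edgeR), and Hcn3, a pacemaker channel (-0.31 ± 0.05, adjusted p = 0.00662, edgeR). The neurofilaments Nefl (-0.31 ± 0.04, adjusted p = 0.0033, edgeR), Nefm (-0.34 ± 0.05, adjusted p = 0.00432, edgeR) and Nefh (-0.43 ± 0.06, adjusted p = 0.0032, edgeR) were lower as well. Nefl read 698, 704 and 779 CPM uncut and 550, 564 and 643 CPM cut, while the unpaired uncut library, at 404 CPM, lay below every cut library. In the 15-library fit Nefl differed by -0.20 ± 0.12 (unadjusted p = 0.123).

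Summed over the 24 tested genes of the neuronal list, the level was 10061 to 14098 CPM in the 4 uncut ID-8 libraries and 8433 to 12798 CPM in the 3 cut ones. By set it was 14098 uncut and 12798 cut in r13, 10061 and 8433 in set 2, and 10266 and 9140 in set 3, lower in each cut culture. The neuronal share of the RNA thus moved with the synaptic and channel genes, and its part in the result was not tested.

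**Figure D3:**
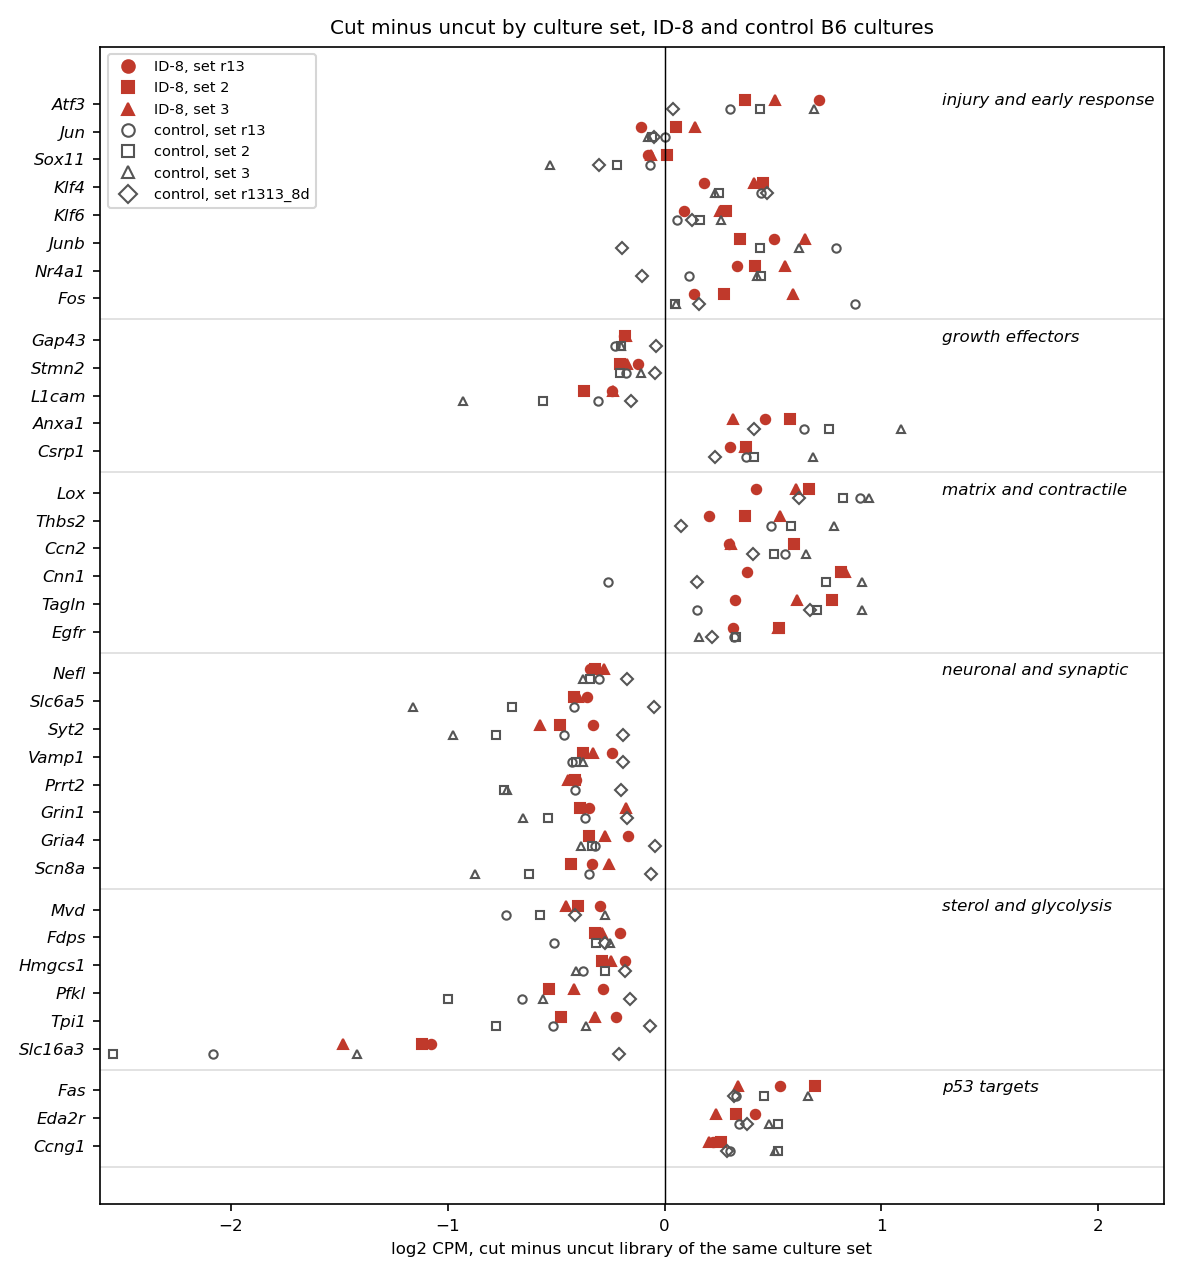
Log2 CPM of the cut minus the uncut library of the same culture set (x axis) for 36 genes in 6 groups (rows), in ID-8 cultures (filled red, 3 sets) and control cultures (open grey, 4 sets). The ID-8 points of the matrix, contractile and p53 genes lie right of 0 and those of the neuronal, sterol and glycolysis genes left of 0 in all 3 sets, while Jun and Sox11 lie on both sides.

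Cholesterol synthesis genes were lower with little variation between sets. Of 21 tested, 0 were above and 20 below in all 3 sets (19.0% and 21.2% of all genes). Of the 21, 12 were called lower and 0 higher (3.92% and 2.71% of all genes). The list's median difference was -0.20, -0.22 and -0.21 log2 in sets r13, 2 and 3. Mvd, the decarboxylase of the mevalonate branch, read 61.4, 77.2 and 90.1 CPM uncut and 50.0, 58.6 and 65.7 CPM cut, with 63.1 CPM in the unpaired library. Each cut culture was below its partner, and the groups overlapped. Mvd differed by -0.38 ± 0.05 (adjusted p = 0.00283, edgeR). Fdps, the synthase of farnesyl diphosphate, read 173, 176.7 and 183.5 CPM uncut and 150.2, 141.4 and 150.3 CPM cut, with 195 CPM in the unpaired library, so all uncut libraries were above all cut ones. It differed by -0.27 ± 0.05 (adjusted p = 0.00581, edgeR) with 7 libraries and by -0.17 ± 0.11 (unadjusted p = 0.141) with 15. Hmgcs1, the synthase at the start of the pathway, differed by -0.24 ± 0.04 (adjusted p = 0.00919, edgeR). None of the list was called without set r1313_8d.

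Genes of glycolysis and hypoxia were divided. Of 28 tested, 5 were above and 13 below in all 3 sets (19.0% and 21.2% of all genes). Of the 28, 3 were called higher and 8 lower (2.71% and 3.92% of all genes). Lower were the glycolytic enzymes Pfkl (-0.41 ± 0.05, adjusted p = 0.00248, edgeR), Tpi1 (-0.34 ± 0.05, adjusted p = 0.00335, edgeR) and Ldha (-0.32 ± 0.05, adjusted p = 0.0039, edgeR). Pfkl read 77.97, 91.7 and 91.7 CPM uncut and 64.1, 63.5 and 68.7 CPM cut, and 71.0 CPM in the unpaired library, so the groups did not overlap; it was also called without set r1313_8d. Higher were the glucose transporter Slc2a1 (0.23 ± 0.05, adjusted p = 0.0223, edgeR), the hexokinase Hk2 (0.30 ± 0.08, adjusted p = 0.0454, edgeR) and P4ha2, a prolyl hydroxylase of collagen. In the 15-library fit 7 of this list had an unadjusted p under 0.05, all lower, against 1.85% of all genes. Tpi1 (-0.32 ± 0.10, unadjusted p = 0.00727) and Ldha (-0.31 ± 0.10, unadjusted p = 0.0108) were among them.

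Matrix and contractile genes were higher. Of 33 extracellular matrix genes, 21 were above and 3 below in all 3 sets (19.0% and 21.2% of all genes). Of the 33, 12 were called higher and 1 lower (2.71% and 3.92% of all genes). The gene called lower was Tnr, a tenascin of perineuronal matrix made by neural cells. Of 26 TGF-beta and YAP targets, 18 were above and 2 below, with 9 called higher and 2 lower. Ccn2 (connective tissue growth factor; chromosome 10, 24595442 to 24598683, GRCm38) read 58.0, 174 and 202 CPM uncut and 71.3, 262 and 250 CPM cut, with 25.0 CPM in the unpaired library. Each cut culture was above its partner by 0.30, 0.60 and 0.31 log2, and set r13 was low in both. The difference was 0.41 ± 0.06 (adjusted p = 0.00562, edgeR) with 7 libraries and 0.35 ± 0.09 (unadjusted p = 0.00129) with 15. Ccn2 was also called without set r1313_8d, as was the matricellular Thbs2 (0.37 ± 0.06, adjusted p = 0.00623, edgeR, with 7 libraries), whose sign turned without the block (-0.04). Tgfbi, a matrix adhesion protein induced by TGF-beta, was called lower against the direction of most of its list (-0.41 ± 0.08, adjusted p = 0.0122, edgeR). It read 17.3, 45.4 and 31.8 CPM uncut and 12.3, 30.6 and 28.0 CPM cut, with 6.53 CPM in the unpaired library.

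Of 14 smooth muscle and pericyte genes, 9 were above and 0 below in all 3 sets, and 6 were called higher. Over all genes 19.0% were above and 21.2% below, with 2.71% called higher and 3.92% lower. Cnn1 (calponin) read 4.43, 9.33 and 7.73 CPM uncut and 5.76, 16.4 and 13.8 CPM cut, with 1.60 CPM in the unpaired library. It differed by 0.71 ± 0.12 (adjusted p = 0.00561, edgeR) and by 0.67 ± 0.18 (unadjusted p = 0.0025) with 15 libraries. Tagln (transgelin) differed by 0.58 ± 0.09 (adjusted p = 0.0149, edgeR). Acta2 read 165, 277 and 260 CPM uncut and 199, 559 and 437 CPM cut, with 88.8 CPM in the unpaired library, and was not called (0.68 ± 0.20, adjusted p = 0.243, edgeR). In the 15-library fit 4 of the list had an unadjusted p under 0.05, all higher. The list's summed level was 392.5 uncut and 466 cut CPM in set r13, 663.6 and 1188 in set 2, and 624.3 and 968.4 in set 3, with 245.9 in the unpaired library. The fibroblast list summed to 2109 uncut and 2094 cut CPM in r13, 3257 and 3740 in set 2, and 2992 and 4160 in set 3, with 7300 in the unpaired library. Of its 17 genes, 7 were above and 2 below in all 3 sets, with 3 called higher and 1 lower. Higher were the small proteoglycans Dcn (0.20 ± 0.05, adjusted p = 0.0299, edgeR) and Lum (0.22 ± 0.05, adjusted p = 0.0229, edgeR) and the mesenchymal factor Prrx1 (0.39 ± 0.07, adjusted p = 0.00918, edgeR). Thy1, which neurons express as well, was called lower (-0.42 ± 0.06, adjusted p = 0.00335, edgeR). Whether these cell types made up more of the cut cultures was not tested. Col1a1 differed by -0.15, 0.18 and 0.63 log2 in sets r13, 2 and 3 and was not called (adjusted p = 0.67, edgeR).

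**Figure D4:**
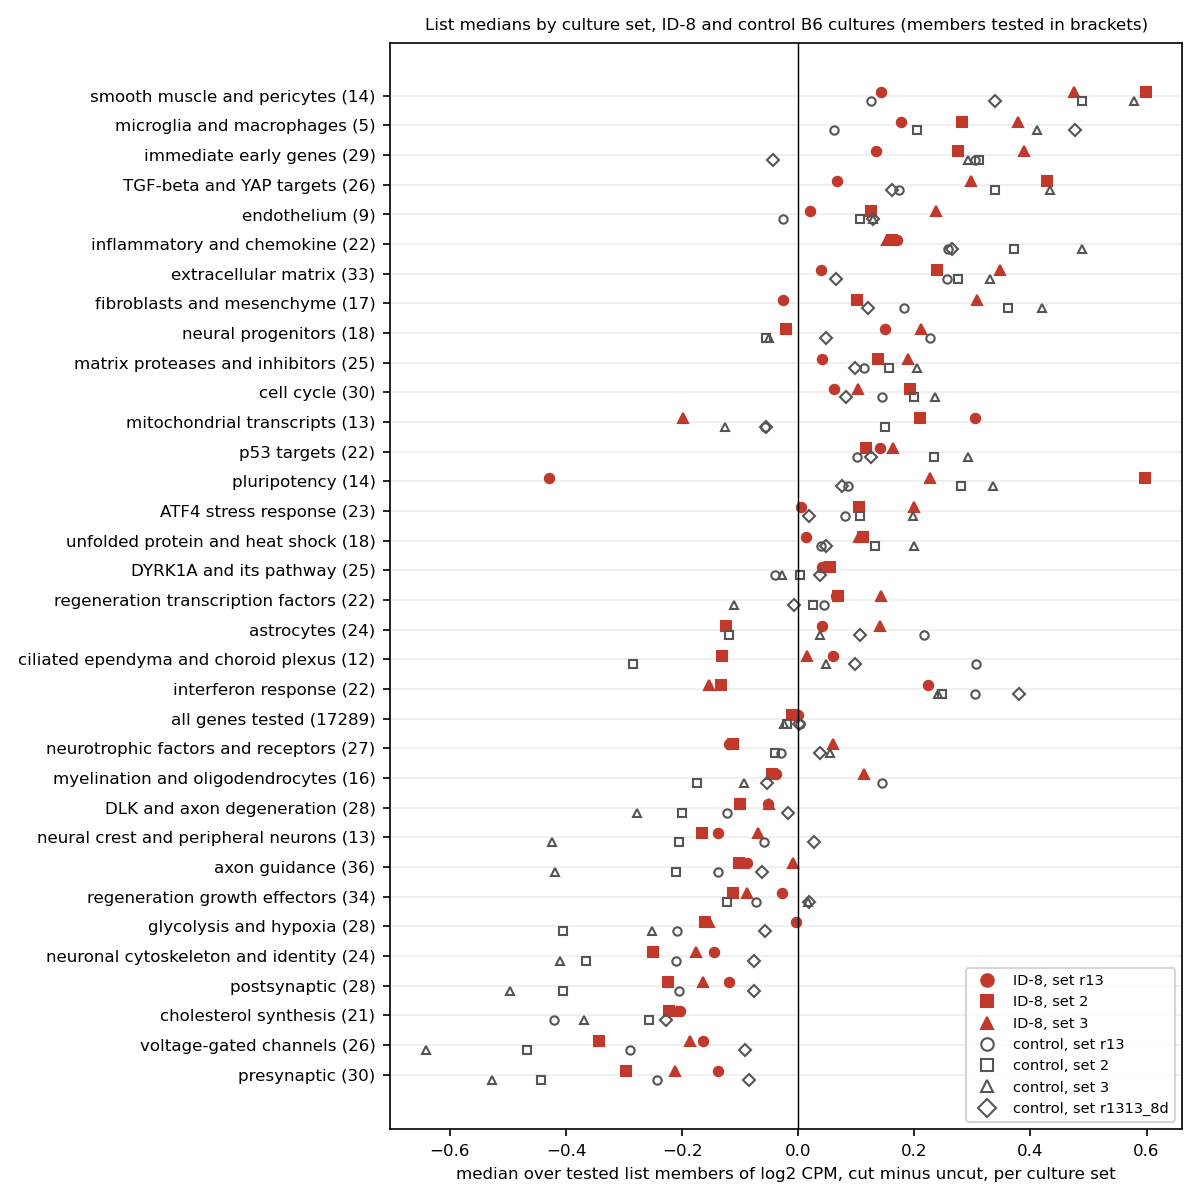
Median over the tested members of each gene list of the log2 CPM difference between the cut and the uncut library of a culture set (x axis), in ID-8 (filled red, 3 sets) and control (open grey, 4 sets) cultures; the number of members is in brackets, and all 17289 genes tested are 1 row. Presynaptic, channel, cholesterol, postsynaptic and neuronal lists lie below 0 in every set shown, and the smooth muscle, TGF-beta and YAP, matrix and p53 lists above 0.

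Of 22 p53 targets, 17 were above and 2 below in all 3 sets (19.0% and 21.2% of all genes). Of the 22, 8 were called higher and 0 lower (2.71% and 3.92% of all genes). The death receptor Fas read 14.5, 25.9 and 29.8 CPM uncut and 21.0, 42.0 and 37.7 CPM cut, with 21.9 CPM in the unpaired library, and differed by 0.53 ± 0.08 (adjusted p = 0.00335, edgeR). Eda2r, a receptor of the same superfamily, differed by 0.33 ± 0.05 (adjusted p = 0.00477, edgeR), and both were also called without set r1313_8d. Ccng1 (cyclin G1) differed by 0.23 ± 0.04 (adjusted p = 0.0104, edgeR). The cell cycle inhibitor Cdkn1a, a classic target, was not called (0.12 ± 0.04, adjusted p = 0.131, edgeR). Of 30 cell cycle genes, 18 were above and 0 below in all 3 sets, but only Cenpf and Cenpe, both kinetochore proteins, were called. Cenpe read 13.4, 33.4 and 30.6 CPM uncut and 15.6, 41.5 and 37.7 CPM cut, with 20.9 CPM in the unpaired library, and differed by 0.29 ± 0.07 (adjusted p = 0.021, edgeR).

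In the ATF4 and protein folding lists the calls were near the share over all genes (2.71% higher, 3.92% lower). Some other lists given here held larger shares called higher, such as the inflammatory (3 of 20), astrocyte (3 of 23) and neural progenitor (3 of 18) lists. Of 23 ATF4 targets 1 was called higher and 0 lower, Trib3, a pseudokinase of the stress response (0.46 ± 0.11, adjusted p = 0.0308, edgeR). Of 18 genes of protein folding stress 1 was called higher and 0 lower, the chaperone Dnajb9 (0.22 ± 0.06, adjusted p = 0.0371, edgeR). In the inflammatory list 22 of 29 genes could be tested, and of the 20 that entered the 7-library fit 3 were called higher and 1 lower. Lower was Cx3cl1, a chemokine made by neurons. Higher were Csf1, the macrophage growth factor (0.44 ± 0.05, adjusted p = 0.00174, edgeR), the cyclooxygenase Ptgs2 (0.82 ± 0.16, adjusted p = 0.0125, edgeR) and the chemokine Ccl2 (0.44 ± 0.10, adjusted p = 0.0214, edgeR). Ptgs2 was weakly expressed, at 2.49, 2.71 and 4.39 CPM uncut and 3.48, 6.39 and 6.98 CPM cut, with 5.81 CPM in the unpaired library. The interferon list had 0 calls of 22 and moved differently by set, with a median of 0.22 log2 in set r13, -0.13 in set 2 and -0.15 in set 3. Only 5 of 15 microglia genes and 16 of 20 oligodendrocyte genes were expressed enough to test in the 15-library fit (5 and 15 in the 7-library fit), with 0 calls in each. Of 23 astrocyte genes in the 7-library fit 3 were called higher and 1 lower, and Gfap was not (-0.09 ± 0.07, adjusted p = 0.524, edgeR). Axon guidance held 3 calls higher and 2 lower of 36, with the secreted semaphorin Sema3c higher (0.41 ± 0.06, adjusted p = 0.00306, edgeR) and also called without set r1313_8d. Of the other lists, matrix proteases and inhibitors had 3 genes called higher and 1 lower of 25, neurotrophic factors and receptors 1 and 3 of 26, neural progenitors 3 and 0 of 18, neural crest and peripheral neurons 0 and 1 of 13, and pluripotency 1 and 0 of 14. Endothelium (9 tested) and ciliated and choroid cells (12 tested) had none in either direction. The 13 mitochondrial transcripts, none called, summed to 35594 to 43597 CPM in uncut and 39060 to 42996 CPM in cut libraries.

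Dyrk1a, the target of ID-8, read 122.2, 106.9 and 98.3 CPM uncut and 135.6, 105.8 and 103.2 CPM cut in sets r13, 2 and 3, with 124.6 CPM in the unpaired library. The groups overlapped, and the difference was 0.07 ± 0.05 (adjusted p = 0.469, edgeR) with 7 libraries and 0.07 ± 0.07 (unadjusted p = 0.29) with 15. Of 25 genes of the DYRK1A list, 24 of them in the 7-library fit, 4 were called higher and 1 lower. Over all genes these shares were 2.71% and 3.92%. Ccnd1 (cyclin D1) differed by 0.31 ± 0.06 (adjusted p = 0.0161, edgeR), Clk4, a related kinase, by 0.26 ± 0.07 (adjusted p = 0.0391, edgeR), and Rcan1, the calcineurin regulator, by -0.08 ± 0.05 (adjusted p = 0.349, edgeR).

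Other genes led the 15-library fit by p, and they were chosen after their values were seen. Abi3bp, a matrix protein, read 4.83, 3.15 and 4.39 CPM uncut and 5.38, 6.30 and 8.98 CPM cut, with 14.1 CPM in the unpaired library. It differed by 0.85 ± 0.18 (unadjusted p = 0.000393, adjusted p = 0.998, edgeR). Trf, the iron carrier transferrin, read 8.18, 6.30 and 5.49 CPM uncut and 5.54, 3.14 and 4.15 CPM cut, with 20.2 CPM in the unpaired library, and differed by -0.59 ± 0.13 (unadjusted p = 0.000642). For Abi3bp the 4 uncut libraries thus reached both below and above the cut ones. Agtr2, the type 2 angiotensin receptor (0.42 ± 0.10, unadjusted p = 0.00118), and Ptgds, a prostaglandin synthase (0.80 ± 0.20, unadjusted p = 0.00135), followed. Abi3bp, Trf and Agtr2 were also called in the 7-library fit (adjusted p = 0.028, 0.0124 and 0.0032, edgeR), and none of the 3 without set r1313_8d. Without the block the sign of Agtr2 turned (-0.25). Ptgds read 19.0, 16.7 and 20.0 CPM uncut and 22.4, 39.1 and 39.3 CPM cut, with 5.03 CPM in the unpaired library. All cut libraries were above all uncut ones, yet the 7-library fit gave it an adjusted p of 0.205 (edgeR), with sets 2 and 3 differing by 1.23 and 0.97 log2 and set r13 by 0.23.

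Cutting was compared with and without ID-8 by testing the difference of the responses in the 15-library fit. Of 17289 genes 0 were called (0.00%), 835 had an unadjusted p under 0.05 (4.83%), and the smallest adjusted p was 0.845. DESeq2 called 8 genes, 1 with a difference (ID-8 minus control response) above 0 and 7 below 0. The 7 included Moxd1, Rab7b, Npr3 and Vps25, and the other 4 of the 8 had libraries at 0. A difference below 0 need not be a smaller response: Gm12918 differed by -24.9 log2, with -17.6 in the ID-8 cultures themselves. Gm12918 had 0 counts in 6 of the 7 ID-8 libraries and at most 11, so these sizes cannot be taken as measured. Without set r1313_8d there were 0 calls and 1868 genes at an unadjusted p under 0.05. Within the control cultures the same fit called 85 genes higher (0.492%) and 113 lower (0.654%), and 1311 (7.63%) and 2185 (12.7%) without set r1313_8d. A count above 0 in control and of 0 under ID-8 does not by itself show a difference, and the test of the difference called none.

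The 198 genes called in control cultures were mostly on the same side under ID-8. Of the 85 higher genes 75 were above 0 in the ID-8 estimate, with a median of 0.16 log2 against 0.50 in control. Of the 113 lower genes 112 were below 0, with medians of -0.15 and -0.38. Taken in the direction of the control response, the ID-8 response was the smaller one in all 198. This counts an ID-8 response of the opposite sign as smaller, whatever its size. The 198 genes were chosen for their control values, so these medians and counts are a description with no test. Medians of several lists over the 3 shared sets were nearer 0 with ID-8: the presynaptic median was -0.23 log2 with ID-8 and -0.42 in control, that of channels -0.23 and -0.43, that of cholesterol synthesis -0.19 and -0.34, while those of immediate early genes were 0.29 and 0.33 and of smooth muscle genes 0.41 and 0.43. Smaller in size than in control were 30 of 30 presynaptic, 26 of 26 channel and 21 of 21 cholesterol genes, against 11688 of all 17289. For the difference itself 1 presynaptic, 2 channel and 3 cholesterol genes had an unadjusted p under 0.05 in the 15-library fit, where 4.83% of all genes did. Without set r1313_8d they were 13, 11 and 6, where 10.9% of all genes did, and no gene was called in either fit. The called ID-8 genes kept the direction of control in 427 of 459 higher and 652 of 665 lower genes over the same 3 sets. In that direction the control response was the larger one in 199 of the 459 higher genes and in 551 of the 665 lower genes. These genes were called on their ID-8 values, so the counts are a description.

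**Figure D5:**
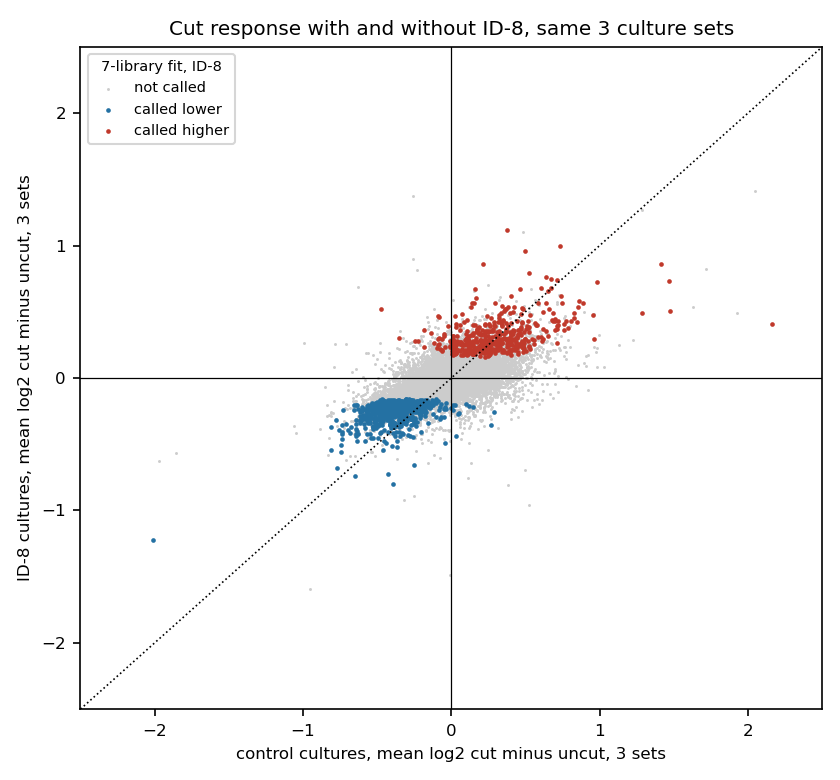
Mean log2 CPM difference between cut and uncut libraries over sets r13, 2 and 3 in control cultures (x axis) and ID-8 cultures (y axis), for the 13641 better expressed genes (2 lie outside the plotted range); colours mark genes called in the 7-library ID-8 fit, and the dotted line marks equal responses. Pearson r across genes was 0.568. Most genes called lower lie above the dotted line, while genes called higher lie on both sides of it.

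The differences from control with the smallest p, none of them called, were in part in genes that were called higher in cut control cultures. They were named after their values were seen. Npr3, the clearance receptor of natriuretic peptides, read 25.1, 29.3, 30.3 and 13.0 CPM in uncut control cultures of sets r13, 2, 3 and r1313_8d and 45.3, 63.7, 59.6 and 22.9 CPM in their cut partners. In ID-8 cultures it read 15.8, 27.4 and 25.3 CPM uncut and 13.9, 30.6 and 30.8 CPM cut in sets r13, 2 and 3, with 12.0 CPM in the unpaired library. Cut control cultures were above their partner in 4 of 4 sets, and cut ID-8 cultures in 2 of 3. The difference of the responses was -0.87 ± 0.19 (95% interval -1.28 to -0.47, unadjusted p = 0.000472, adjusted p = 0.845, edgeR). Moxd1, a monooxygenase-like protein, differed by -1.03 ± 0.22 (unadjusted p = 0.00033, adjusted p = 0.845, edgeR), Efemp1, a fibulin of the matrix, by -0.60 ± 0.14 (unadjusted p = 0.000981) and Ptx3, a secreted pentraxin, by -0.76 ± 0.19 (unadjusted p = 0.00178). All 4 were called higher in cut control cultures (adjusted p from 0.00547 to 0.036, edgeR). Ptgds went the other way, with a response larger under ID-8 by 0.94 ± 0.28 (unadjusted p = 0.00494, adjusted p = 0.845, edgeR). Ptx3 was called higher in cut ID-8 cultures (0.51 ± 0.08, adjusted p = 0.00498, edgeR). For the genes described above, intervals of the difference from control included both 0 and sizable values: -1.21 to 0.18 for Lox, -0.50 to 1.25 for Slc16a3, -0.22 to 0.70 for Syt2 and -0.23 to 0.73 for Mvd.

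The strains were compared in a fit of all 30 libraries of the stage. The difference between the B6 and WSB responses to cutting under ID-8 was called for 0 of 18106 genes in edgeR (0.00%), with 718 at an unadjusted p under 0.05 (3.97%), and for 6 in DESeq2. In WSB itself 0 genes were called and 2722 had an unadjusted p under 0.05. In WSB, 1 cut ID-8 library had no uncut partner in its culture set. Slc16a3 differed by -1.16 ± 0.44 in WSB, Mvd by -0.57 ± 0.16, Syt2 by -0.35 ± 0.21, Lox by 0.99 ± 0.51 and Ccn2 by 0.80 ± 0.69, none of them called (adjusted p from 0.166 to 0.61, edgeR). These have the sign found in B6, whereas Junb did not (-0.26 ± 0.53). The intervals are too wide to show that the strains act alike.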

How the data were processed

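Expected counts per gene were deposited by the authors. Per the submitters' processing notes they were made with Bowtie2, RSEM, featureCounts and limma on GRCm38; versions and settings are not given in the sources used here, nor whether strand was used in counting. Of these values 9.32% were not whole. Repeat runs of a library were summed and sums rounded. Groups and culture sets came from the labels. Over the 21 pairs of B6 libraries that share a set, deviations from group means correlated above 0.1 in 21 (lowest 0.415). On these values sets were kept as a block. The highest correlation between libraries of different sets was 0.651, so the check does not show that libraries are alike only within sets. The main fit used the 15 B6 libraries of the axon stage with TMM factors, filterByExpr and robust quasi-likelihood tests in edgeR 4.0.16 (R 4.3.3), with calls at an adjusted p under 0.05. Differences between partners are log2 CPM with a prior count of 0.5, and RPKM uses exon lengths of the GENCODE M21 annotation. Errors after ± are SE. Symbols came from that annotation. Alternatives included DESeq2 1.42.0, RLE factors, no filter, other sets of libraries and leaving out each library. The code was tested on simulated data with the same spread for every gene and no culture set effect. That test cannot tell how reliable the 7-library calls are. Named genes were up to 4 of each list with the smallest p in the main fit and Dyrk1a; others, such as those leading the 7-library fit or named for their role, were chosen after values were seen. The comparison, the lists and the rules were chosen with earlier results of these data known. Some genes are not reported here.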

Additional observations from a re-analysis of the deposited data

Results flagged for a closer look

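Among the 92 genes examined, 7 had 1 uncut ID-8 library far from the other 3, by the gap to its nearest neighbour as a share of the group's whole range; chance alone flags about 1 in 20 such groups. In 6 of these 7 it was the unpaired library of set r1313_8d. That library was high for Col1a1 (share 0.952), Thbs2 (0.909), Ptx3 (0.898), Agtr2 (0.867) and Abi3bp (0.846), and low for Nefh (0.947). For Sema3c the uncut library of set r13 was low (0.918). No named gene moved one way in all 3 ID-8 pairs and the other way in all 4 control pairs.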

How the results depend on the processing

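The number of genes called for ID-8 cut minus uncut was 0 without the replicate block, with RLE factors, without a filter and in the fit of 30 libraries. It was 4 with DESeq2 and 1124 with the 7 ID-8 libraries alone. It was 56 without culture set r1313_8d, an alternative chosen after seeing the data. Without the unpaired uncut ID-8 library (replicate 2) it was 22, in a fit that kept the control libraries of its set. Leaving out each ID-8 library in turn gave 0 to 22, the 22 being that same fit. Without the replicate block 121 genes had an unadjusted p under 0.05, against 586 with it, and the block changed no call. The difference from the control response had 0 calls under each edgeR alternative run, first runs only and each left-out library (0 to 0) included, and 8 with DESeq2. The difference between strains had 0 calls in edgeR, with and without WSB ID-8 cut replicate 3 and without the replicate block, and 6 with DESeq2. Control calls went from 198 to 3496 without set r1313_8d. Of the 92 genes examined 75 were called with the 7 libraries alone, and 21 without the set. For 12 of the 92 the estimate of ID-8 cut minus uncut changed sign under an alternative, with 0 of these called there. Without the replicate block the log2 estimate became -0.25 for Agtr2 (0.42 with it), -0.04 for Thbs2 (0.25), -0.61 for Col1a1 (0.14), -0.21 for Nrk (0.43), 0.04 for Moxd1 (-0.18), -0.07 for Efemp1 (0.23) and -0.56 for Ptx3 (0.49). Jun went from -0.07 to 0.03 with the 7 libraries alone, 0.02 without the unpaired uncut library and 0.03 without set r1313_8d. Leaving out each ID-8 library in turn gave -0.17 to 0.02 for Jun, -0.03 to 0.35 for Csrp1, -0.08 to 0.01 for Map3k12, -0.06 to 0.27 for Npr3 and -0.20 to 0.50 for Cav1. The cause of the shift with that set was not tested.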
